A study of Mus musculus with 6 samples.

Results

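The genes described are 10 of the NF-kB system: the 5 subunit genes Nfkb1, Rel, Rela, Nfkb2 and Relb, and 5 genes of feedback inhibitors or modulators, Nfkbia, Nfkbie, Nfkbiz, Bcl3 and Tnfaip3. They were taken by symbol, and all 10 were found among the 18341 genes of the deposited table. The RNA came from monocytes that were sorted out of tumours grown under the skin of C57BL/6 mice for 13 days, after injection of B16.F10 cells, a mouse melanoma line. In the BAFF tumour group the injected cells overexpressed BAFF, the B cell activating factor, and in the control tumour group they were control cells. Each group had 3 libraries. The labels give neither the age and sex of the mice, nor the vector, nor whether a line was 1 clone, nor whether each library came from its own mouse, so p-values refer to the spread between these libraries. The question is which monocyte transcripts differ when the surrounding tumour overexpresses BAFF.

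NF-kB factors are dimers of Rel-homology proteins that rest in the cytoplasm bound to IkB proteins. In the canonical pathway, Toll-like, interleukin 1 and TNF receptors activate the IkB kinase complex, IkB is degraded, and dimers of RelA or c-Rel with the processed Nfkb1 product enter the nucleus. In the non-canonical pathway, known best from BAFF receptor signalling in B cells, the kinase NIK causes the Nfkb2 precursor to be processed and frees its dimer with RelB. Many genes of the system, the inhibitors above all, are themselves NF-kB targets in monocytes and macrophages, which gives the pathway its negative feedback. Transcript levels do not measure processing, degradation or nuclear entry of these proteins.

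The values were CPM, reads scaled to a common library total, and reads in the listed genes were recovered in sum from the smallest step of each library. These sums were 6034111, 18238762 and 6191763 reads in BAFF tumour libraries 1, 2 and 3 and 17916950, 3573424 and 1878748 reads in control tumour libraries 1, 2 and 3. From 37 reads (Bcl3 in control tumour 3) to 16001 reads (Tnfaip3 in control tumour 1) stood behind a value of the 10 genes. Listed genes held 61.1% to 66.1% of the library total in BAFF tumour libraries and 65.6%, 50.2% and 39.8% in control tumours 1, 2 and 3. Median-of-ratios size factors (RLE) ran from 0.670 for control tumour 3 to 1.27 for control tumour 1. The median log2 fold change of the 12824 genes tested was 0.23 on the deposited scale and 0.01 after RLE. Each of the 10 genes is therefore given on both scales, and fold changes on the deposited scale include that shift. For most other genes the log2 values are given after RLE only. Levels per kilobase and summed marker levels are as deposited.

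None of the 10 genes passed on the deposited scale and 4 passed as higher after RLE, namely Nfkb1, Nfkb2, Relb and Nfkbie. The test was limma-trend on log2(CPM + 1) with Benjamini-Hochberg adjusted p under 0.05 over all genes tested. On the deposited scale 5 of the 10 had an unadjusted p under 0.05, all as higher. Of all 12824 genes tested 2053 did, 1223 of them as higher. After adjustment 681 of all genes passed, or 5.31% (1.81% as higher and 3.50% as lower). After RLE 7 of the 10 had an unadjusted p under 0.05, all as higher. Of all 12824 genes tested 3919 did, 1899 of them as higher. After adjustment 2192 of all genes passed, or 17.1% (7.18% as higher and 9.91% as lower). The median log2 fold change of the 10 was 0.63 on the deposited scale and 0.38 after RLE. On the deposited scale it was 0.33 without control tumour 3 and 0.95 without control tumour 1, and after RLE 0.30 and 0.46. The median of all genes tested in the same fits was 0.04 and 0.44 on the deposited scale, and 0.009 and 0.004 after RLE. The fold change was above 0 for 10 of 10 genes on the deposited scale, where 74.1% of all genes were, and for 9 of 10 after RLE, where 51.2% were. The groups did not overlap, with BAFF tumour higher, for 5 of the 10 on the deposited scale (11.4% of all genes) and for 8 after RLE (17.3% of all genes). In bulk libraries of sorted cells, a different mix of cells and a different amount of transcript per cell cannot be told apart.

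**Figure D1:**
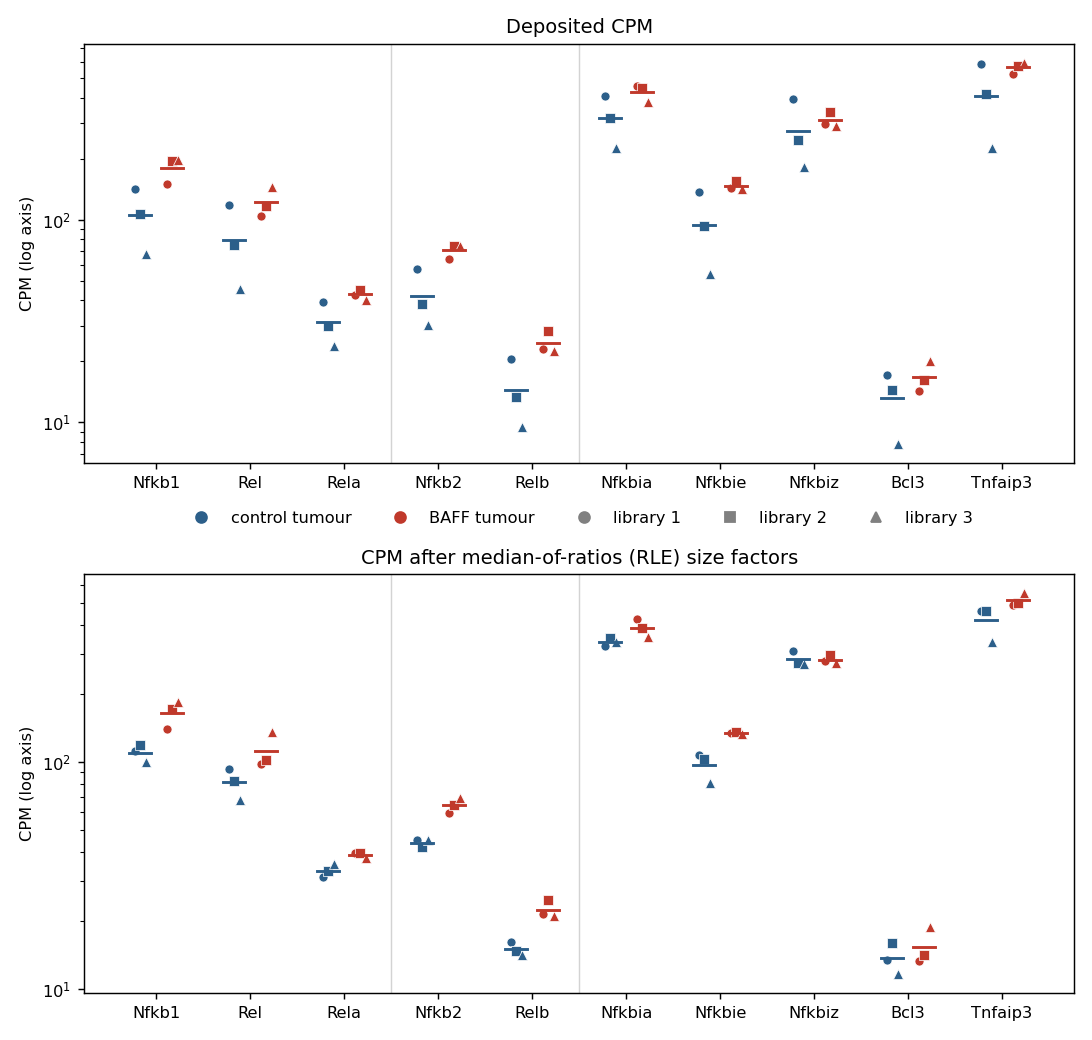
CPM of the 10 NF-kB genes in each library on a log axis, as deposited (upper panel) and after median-of-ratios size factors (lower panel). Points are libraries, bars are group means (n = 3), and grey lines part canonical subunits, non-canonical subunits and inhibitors. On the deposited scale the control libraries spread from 67.3 to 141 CPM for Nfkb1, and after size factors from 100.5 to 118 CPM.

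Among the canonical subunits, Nfkb1 encodes the precursor of the DNA-binding subunit that lacks a transactivation domain. It stood at 149, 195 and 196 CPM in BAFF tumour libraries 1, 2 and 3 and at 141, 107 and 67.3 CPM in control tumour libraries 1, 2 and 3. Every BAFF tumour library was above every control library, by a small margin over control tumour 1. The log2 fold change was 0.82 ± 0.32 (SE; limma adjusted p = 0.125) on the deposited scale. After RLE Nfkb1 passed, at 0.57 ± 0.12 (adjusted p = 0.00588), with means of 165 ± 22.6 and 110.1 ± 9.02 CPM (SD, n = 3).

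Rel encodes c-Rel, the transactivating subunit most tied to lymphoid and myeloid cells. Its values were 104, 116 and 145 CPM in BAFF tumour libraries and 118, 75.0 and 45.5 CPM in controls. Control tumour 1 lay within the BAFF tumour range, so the groups overlapped on the deposited scale (log2 0.70 ± 0.32, limma adjusted p = 0.233). After RLE they did not overlap, and Rel missed the threshold at 0.45 ± 0.15 (adjusted p = 0.0535).

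Rela encodes p65, the main transactivating partner in canonical dimers. It measured 42.7, 45.2 and 40.3 CPM in BAFF tumour libraries and 39.4, 29.9 and 23.9 CPM in controls. All BAFF tumour values were higher, the closest pair being BAFF tumour 3 and control tumour 1. The log2 fold change was 0.47 ± 0.32 (limma adjusted p = 0.477) as deposited. After RLE it was 0.23 ± 0.10 (adjusted p = 0.154), with a 95% interval from 0.01 to 0.45, the smallest estimate of the 5 subunits on either scale.

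Both non-canonical subunit genes passed after RLE. Nfkb2, whose precursor also acts as an IkB for RelB, stood at 64.1, 74.0 and 74.1 CPM in BAFF tumour libraries and 57.3, 38.2 and 30.3 CPM in controls. No control library reached the BAFF tumour range. Its log2 fold change was 0.79 ± 0.32 (limma adjusted p = 0.150) as deposited and 0.54 ± 0.10 (adjusted p = 0.00308) after RLE, a 1.45-fold difference. The RLE-scaled control values lay close together, at 45.2, 42.2 and 45.2 CPM, against 59.9, 64.8 and 69.4 CPM. GENCODE M21 places 11.6% of the annotated Nfkb2 exon bases in the divergent non-coding gene AC114539.1 and 6.52% in Psd on the other strand, and the library kit does not mark strand. Psd itself was at most 0.549 CPM.

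Relb encodes RelB, the transactivating partner of the processed Nfkb2 product. It stood at 22.9, 28.3 and 22.5 CPM in BAFF tumour libraries and 20.5, 13.3 and 9.53 CPM in controls. The 2 lowest BAFF tumour values lay just above control tumour 1, and control tumours 2 and 3 lay well below. Its log2 fold change was 0.78 ± 0.32 (limma adjusted p = 0.1495) as deposited and 0.54 ± 0.12 (adjusted p = 0.00895) after RLE. In fits after RLE that left out 1 library, Nfkb1 and Nfkb2 passed in 6 of 6, and Relb in 5, missing without BAFF tumour 2 (adjusted p = 0.0513). Rel passed in 2 of those 6, without BAFF tumour 1 (adjusted p = 0.0486) and without control tumour 1 (0.0349). With control tumour 1 left out, 9 of the 10 genes, all but Nfkbiz, passed as deposited, in a fit where 4615 of all genes passed as higher and 534 as lower.

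**Figure D2:**
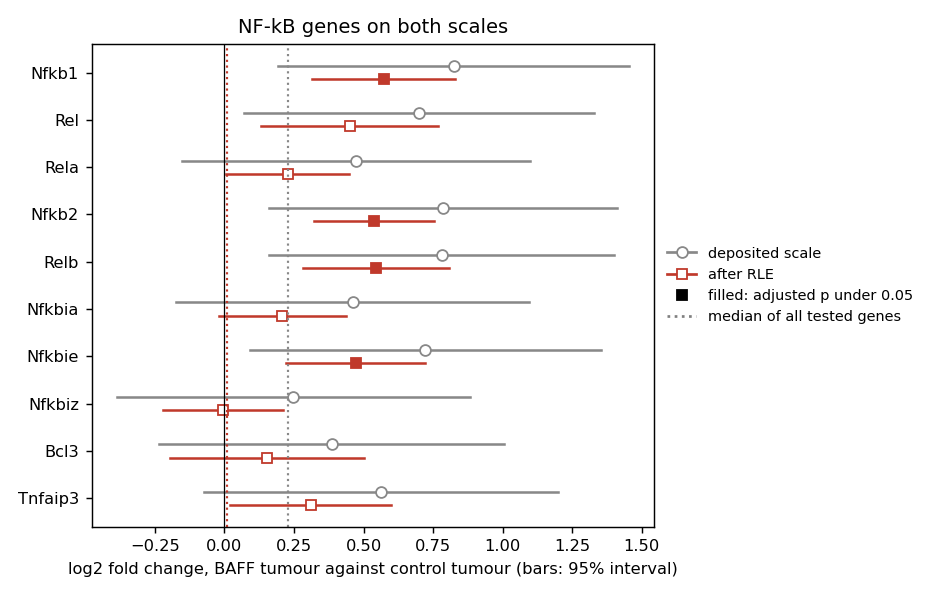
Log2 fold change of BAFF tumour against control tumour libraries for the 10 genes, with 95% intervals from limma, on the deposited scale (grey circles) and after RLE (red squares). Filled symbols have an adjusted p under 0.05, and dotted lines mark the median of all genes tested, 0.23 and 0.01. Filled squares stand only at Nfkb1, Nfkb2, Relb and Nfkbie, and no grey circle is filled.

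The canonical and non-canonical subunits were set against each other by ratios within a library, which no library scaling can change. The sum of Nfkb2 and Relb divided by the sum of Nfkb1, Rel and Rela was 0.294, 0.287 and 0.253 in BAFF tumour libraries and 0.260, 0.243 and 0.291 in controls. The groups overlapped, and the mean log2 ratio differed by 0.07 with SDs of 0.11 and 0.13 (n = 3 each). Nfkb2 to Nfkb1, the 2 precursor genes, had ratios of 0.429, 0.379 and 0.378 against 0.406, 0.357 and 0.4497, also overlapping. Relb to Rel overlapped as well, at 0.220, 0.244 and 0.155 against 0.174, 0.178 and 0.209.

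Relb to Rela was the exception among the 4 subunit ratios, and the only ratio of them with Rela alone as denominator. It was 0.536, 0.626 and 0.559 in BAFF tumour libraries and 0.520, 0.446 and 0.398 in controls. The lowest BAFF tumour library was just above control tumour 1, and the mean log2 ratio was higher by 0.34, from -1.15 ± 0.19 to -0.80 ± 0.12 (SD, n = 3). Of all other tested genes, 3.69% had a ratio to Rela that was higher in every BAFF tumour library (1 CPM added to each value). The ratios are descriptions without a test.

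**Figure D3:**
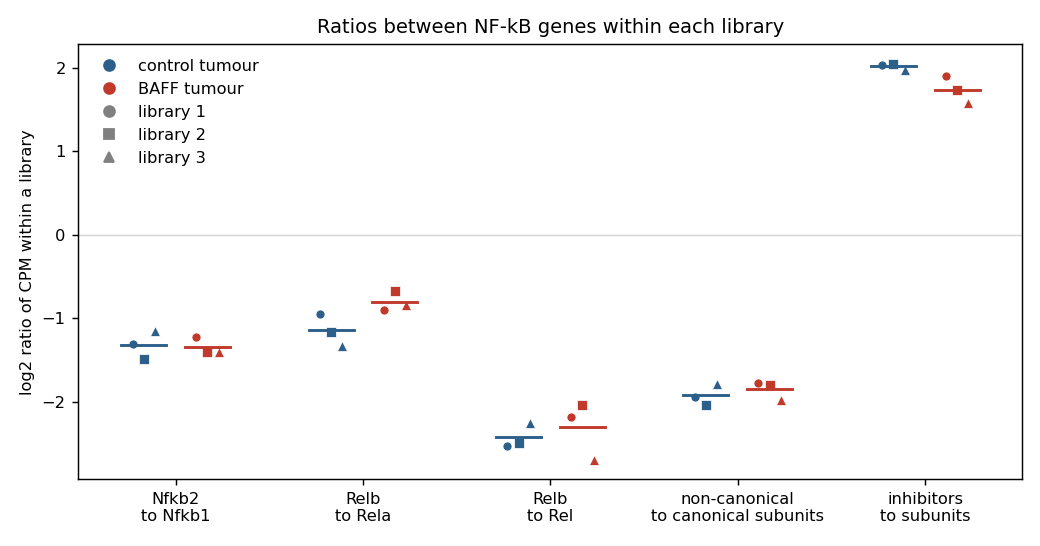
Log2 ratios of CPM within each library between subunit genes and, at the right, between the summed 5 inhibitor genes and the summed 5 subunit genes. Points are libraries and bars group means (n = 3). The groups overlap for Nfkb2 to Nfkb1, Relb to Rel and the summed subunits, and do not for Relb to Rela or for inhibitors to subunits.

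Of the cytoplasmic inhibitors, Nfkbie passed after RLE and Nfkbia did not. Nfkbie encodes IkB-epsilon, which holds mainly RelA and c-Rel dimers. It stood at 143, 154 and 142 CPM in BAFF tumour libraries and 136, 93.2 and 54.0 CPM in controls. The BAFF tumour values lay close together and all higher, and control tumour 3 was the lowest by a wide margin. Its log2 fold change was 0.72 ± 0.32 (limma adjusted p = 0.2102) as deposited and 0.47 ± 0.11 (adjusted p = 0.0149) after RLE. It passed in 5 of 6 fits after RLE that left out 1 library, and missed without BAFF tumour 2 (adjusted p = 0.0537).

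Nfkbia encodes IkB-alpha, the fast inhibitor that is degraded and then made anew within one round of signalling. Its values were 456, 446 and 380 CPM in BAFF tumour libraries and 409, 319 and 226 CPM in controls. BAFF tumour 3 lay below control tumour 1, so the groups overlapped as deposited (log2 0.46 ± 0.32, limma adjusted p = 0.494). After RLE the difference was 0.21 ± 0.10 (adjusted p = 0.203), with a 95% interval from -0.02 to 0.44 and no overlap.

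The promoter windows of 4 genes are shown because several NF-kB genes are known targets of NF-kB: Nfkb2 and Nfkbie, which passed after RLE, and Nfkbia and Rel, which did not. They are the 250 bases before a RefSeq start in GRCm38.p6, read on the gene's strand from 5′ to 3′, with each match to the loose kB motif (GGG and CC separated by any 5 bases) on either strand in capitals (overlapping matches run together). The Nfkb2 window belongs to the second of its 3 RefSeq starts, and 167 of its bases are annotated as exon of a neighbouring gene.
Nfkb2, chr19:46305445-46305694, strand +: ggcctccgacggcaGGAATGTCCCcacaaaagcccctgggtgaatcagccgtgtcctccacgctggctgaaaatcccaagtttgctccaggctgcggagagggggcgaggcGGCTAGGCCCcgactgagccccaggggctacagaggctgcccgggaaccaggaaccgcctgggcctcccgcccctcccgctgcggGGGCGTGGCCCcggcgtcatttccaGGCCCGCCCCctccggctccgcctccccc
Nfkbie, chr17:45555450-45555699, strand +: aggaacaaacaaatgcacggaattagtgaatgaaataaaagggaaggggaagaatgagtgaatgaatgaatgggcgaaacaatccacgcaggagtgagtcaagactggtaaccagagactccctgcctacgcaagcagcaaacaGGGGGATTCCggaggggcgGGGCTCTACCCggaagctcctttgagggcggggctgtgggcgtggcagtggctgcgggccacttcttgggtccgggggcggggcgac
Nfkbia, chr12:55492648-55492897, strand -: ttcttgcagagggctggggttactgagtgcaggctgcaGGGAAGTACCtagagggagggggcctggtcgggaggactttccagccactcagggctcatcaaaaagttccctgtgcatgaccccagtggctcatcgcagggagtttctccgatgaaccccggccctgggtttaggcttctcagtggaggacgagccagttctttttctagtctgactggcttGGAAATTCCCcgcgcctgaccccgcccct
Rel, chr11:23770970-23771219, strand -: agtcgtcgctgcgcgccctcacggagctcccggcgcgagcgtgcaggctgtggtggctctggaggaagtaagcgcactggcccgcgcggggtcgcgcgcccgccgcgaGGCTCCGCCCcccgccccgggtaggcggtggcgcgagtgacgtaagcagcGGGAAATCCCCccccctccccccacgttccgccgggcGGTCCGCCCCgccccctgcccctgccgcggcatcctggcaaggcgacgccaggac
Such a window, with 50 further bases after the start, was at hand for 7 of the 10 genes, as 10 windows. The loose motif was in 10 of the 10 and in 50.8% of all 32851 promoter windows of that length. The narrower motif (GGGA and CC separated by any 4 bases), which the loose one includes, was in 9 of the 10, all but that of Nfkbie, and in 20.7% of all windows. Nfkbia held GGGAATTTCC on the reverse strand, its match beginning 29 bases before the start, and Rel held GGGAAATCCC at 92 bases. In the window of the first Nfkb2 start, not printed in full, GGGAATTCCC lay 39 bases before the start. All 250 bases of that window before the start are annotated as exon of Nfkb2 itself. Both kinds of gene, those that passed and those that did not, carried matches, and a match is a sequence feature and not a measured binding site. Nfkb1, Relb and Nfkbiz were the 3 genes without a window.

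The nuclear IkB genes did not pass on either scale. Nfkbiz encodes IkB-zeta, an inducible nuclear protein that works with the Nfkb1 product at secondary response genes. It stood at 297, 339 and 291 CPM in BAFF tumour libraries and 391, 246 and 181 CPM in controls, so the highest and the lowest values were both controls. Its log2 fold change was 0.25 ± 0.32 (limma adjusted p = 0.710) as deposited and -0.0052 ± 0.099 (adjusted p = 0.980) after RLE, where the 95% interval ran from -0.22 to 0.21. The upper bound of that interval is below the estimates for Nfkb1, Nfkb2 and Relb after RLE; the difference between the genes was not tested.

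Bcl3 encodes a nuclear IkB that binds homodimers of the processed Nfkb1 and Nfkb2 products. It stood at 14.2, 16.2 and 20.04 CPM in BAFF tumour libraries and 17.1, 14.5 and 7.83 CPM in controls. The groups overlapped on both scales, with log2 fold changes of 0.39 ± 0.32 (limma adjusted p = 0.566) and 0.15 ± 0.16 (adjusted p = 0.568, 95% interval -0.20 to 0.50). An antisense gene, Gm16175, shares 6.51% of the annotated Bcl3 exon bases.

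Tnfaip3 encodes the ubiquitin-editing enzyme that shuts off signalling above the IkB kinases. It stood at 525, 573 and 592 CPM in BAFF tumour libraries and 585, 417 and 226 CPM in controls. Control tumour 1 lay within the BAFF tumour range, and control tumour 3 was far below all others. Its log2 fold change was 0.56 ± 0.32 (limma adjusted p = 0.389) as deposited and 0.31 ± 0.13 (adjusted p = 0.137) after RLE, where the groups did not overlap. Without control tumour 3 the values were 0.19 as deposited and 0.16 after RLE.

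The 5 inhibitor genes together, relative to the 5 subunit genes together, were lower in every BAFF tumour library. The ratio of summed CPM was 3.75, 3.33 and 2.98 in BAFF tumour libraries and 4.09, 4.13 and 3.94 in controls. The mean log2 ratio was 1.74 ± 0.17 against 2.02 ± 0.04 (SD, n = 3), lower by 0.28 in BAFF tumour libraries (log2 difference -0.28). Singly, Nfkbiz and Bcl3 lay lower without overlap relative to the subunit sum, and Nfkbia, Nfkbie and Tnfaip3 overlapped. The same pattern held for 64.1% of all other tested genes (1 CPM added to each value), so nothing particular to the inhibitors can be read from it.

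Per kilobase of the longest coding transcript in GENCODE M21, 4 of the 5 inhibitor genes, all but Bcl3, stood above the 5 subunit genes. In BAFF tumour libraries Nfkbia stood first at 271 ± 26.3 CPM per kilobase (SD, n = 3), followed by Tnfaip3 at 127 ± 7.78, Nfkbiz at 75.1 ± 6.33 and Nfkbie at 60.1 ± 2.81. Nfkb1 led the subunits at 43.8 ± 6.51 CPM per kilobase, on a transcript of 4117 bases. All annotated exon bases of Nfkb1 number 12061, and Rel has 7466 by either length. The order of the subunits therefore depends on the length used. Nfkb2 at 18.4 ± 1.501, Rel at 16.3 ± 2.83 and Rela at 15.7 ± 0.907 formed a cluster whose neighbours lay within their SDs, with Relb at 11.1 ± 1.47 and Bcl3 at 9.09 ± 1.604 below. In control libraries Nfkbia (201 ± 57.9), Tnfaip3 (92.5 ± 40.7), Nfkbiz (66.3 ± 26.1), Nfkbie (38.8 ± 16.9) and Nfkb1 (25.5 ± 8.98 CPM per kilobase) kept that order. The 5 lowest control levels were Rela (11.4 ± 2.88), Nfkb2 (10.9 ± 3.61), Rel (10.7 ± 4.90), Bcl3 (7.10 ± 2.58) and Relb (6.55 ± 2.53 CPM per kilobase), again with neighbours within their SDs.

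Other genes of the pathway were taken from lists by role. Of all genes tested, 1.81% passed as higher and 3.50% as lower as deposited. After RLE the shares were 7.18% and 9.91%. The kinases and kinase adaptors of the canonical branch, 10 genes, had 0 passing as deposited and 2 passing as higher after RLE. These were the catalytic subunits of the IkB kinase complex, Chuk (log2 0.40 ± 0.10, limma adjusted p = 0.0190) and Ikbkb (0.36 ± 0.10, adjusted p = 0.0317). The list's median after RLE was 0.14, against 0.01 for all genes. The scaffold subunit gene Ikbkg, chosen after its values were seen, did not pass (-0.14 ± 0.11, adjusted p = 0.448). Map3k8, a kinase bound by the Nfkb1 precursor (0.37 ± 0.12, adjusted p = 0.0546), and Tbk1 (0.33 ± 0.13, adjusted p = 0.105) did not pass either.

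The NIK module, which links BAFF-family receptors to Nfkb2 processing, had 1 gene, Birc3, that passed after RLE and 0 of 5 that passed as deposited. Of all genes, 7.18% passed as higher after RLE and 1.81% as deposited. Map3k14, the gene of NIK, stood at 18.9, 24.0 and 18.9 CPM in BAFF tumour libraries and 24.6, 15.6 and 12.7 CPM in controls, with a log2 difference of 0.01 ± 0.12 after RLE (limma adjusted p = 0.954). The adaptor gene Traf3 (0.17 ± 0.12) and Birc2 (0.24 ± 0.13), which encodes a ubiquitin ligase, did not pass either. Birc3, a related ubiquitin ligase that helps to degrade NIK and is itself an NF-kB target, measured 88.0, 100.5 and 109 CPM in BAFF tumour libraries and 87.4, 50.2 and 33.2 CPM in controls. It passed after RLE (0.65 ± 0.13, adjusted p = 0.00532) and not as deposited (adjusted p = 0.0791).

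Among 15 receptor adaptors and ubiquitin ligase subunits, 1 gene passed as deposited and 4 after RLE, all as higher. The shares of all genes passing as higher were 1.81% and 7.18%. Malt1, the paracaspase that acts with BCL10 below ITAM-coupled receptors, stood at 343, 353 and 328 CPM in BAFF tumour libraries and 196, 160.1 and 100.3 CPM in controls. Its groups were far apart, and its log2 fold change was 1.21 ± 0.32 (limma adjusted p = 0.00657) as deposited and 0.96 ± 0.10 (adjusted p = 9.72e-05) after RLE. Irak2, a kinase of Toll-like and interleukin 1 receptor signalling, measured 113, 113 and 109 CPM against 79.8, 57.4 and 40.0 CPM. It passed after RLE (0.71 ± 0.09, adjusted p = 0.000348) and just missed as deposited (adjusted p = 0.0520). Bcl10 (0.39 ± 0.10, adjusted p = 0.0170) and the ubiquitin ligase gene Traf6 (0.35 ± 0.10, adjusted p = 0.0335) passed after RLE too. The median of the list was 0.16 after RLE.

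**Figure D4:**
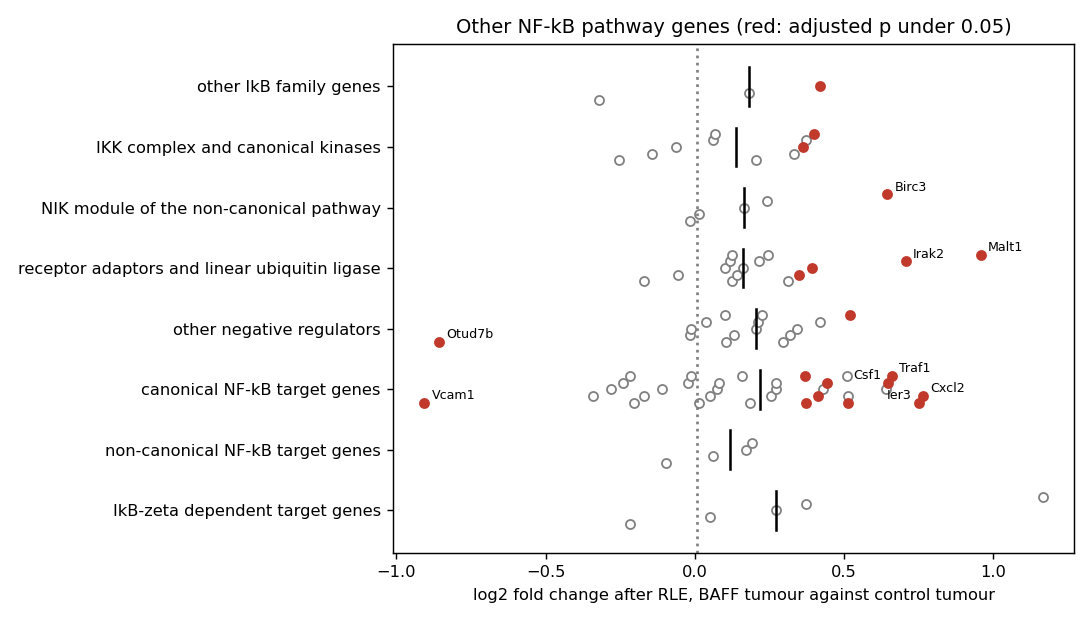
Log2 fold changes after RLE of the tested genes in 8 further NF-kB lists, 1 point per gene, with red points at an adjusted p under 0.05 in limma, black ticks at list medians and a dotted line at the median of all genes (0.01). Malt1, Irak2 and Birc3 lie to the right at 0.96, 0.71 and 0.65, with Cxcl2 and Ier3 at 0.77 and 0.75. Vcam1 and Otud7b lie to the left at -0.91 and -0.86. Lcn2, not red, lies furthest to the right at 1.17.

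Of 15 other inhibitory genes, 0 passed as deposited, and after RLE 1 passed as higher, 1 as lower and 13 did not pass, beside 7.18% of all genes passing as higher and 9.91% as lower. Tax1bp1, an adaptor of the Tnfaip3 enzyme, was higher (0.52 ± 0.09, limma adjusted p = 0.00275). Otud7b, a deubiquitinase that stabilises TRAF3 in the non-canonical pathway, was lower (-0.86 ± 0.19, adjusted p = 0.00981), from values of 5.60, 4.02 and 3.06 CPM in BAFF tumour libraries and 9.29, 7.58 and 4.87 CPM in controls, which overlap as deposited. Irak3 (0.42 ± 0.17) and Tank (0.34 ± 0.13) did not pass. Of the 3 remaining IkB family genes Nfkbid passed after RLE (0.42 ± 0.11, adjusted p = 0.0234), and Nfkbib (0.18 ± 0.13) and Nfkbil1 (-0.32 ± 0.23) did not.

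Target genes of canonical NF-kB moved unevenly. Of 32 tested, 2 passed as deposited, both higher, and after RLE 9 passed as higher, 1 as lower and 22 did not pass, with a list median of 0.22. Among all genes 1.81% passed as higher as deposited, and after RLE 7.18% as higher and 9.91% as lower. The neutrophil attractant gene Cxcl2 stood at 1123, 1191 and 799 CPM in BAFF tumour libraries and 742, 439 and 391 CPM in controls, with log2 fold changes of 1.02 ± 0.33 (limma adjusted p = 0.0361) as deposited and 0.77 ± 0.15 (adjusted p = 0.00401) after RLE. Ier3, an early response and survival gene, had 1.01 ± 0.32 (adjusted p = 0.0386) and 0.75 ± 0.11 (adjusted p = 0.000712). The TNF receptor adaptor gene Traf1 (0.66 ± 0.14) and the growth factor gene Csf1 (0.65 ± 0.14) passed after RLE only. Tnf, chosen after its values were seen, measured 79.4, 75.9 and 71.5 CPM against 124, 56.3 and 38.1 CPM, and its log2 difference after RLE was -0.02 ± 0.17 (adjusted p = 0.945). Vcam1, also chosen afterwards, was the gene lower after RLE (-0.91 ± 0.21, adjusted p = 0.0120).

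As deposited, 4 of the other pathway genes passed as higher (Malt1, Cxcl2, Ier3 and Lcn2), beside 1.81% of all genes. Without BAFF tumour 1 or without control tumour 2, 0 of the other pathway genes passed on that scale, and 60 did without control tumour 1. Of the non-canonical targets 4 of 7 were tested and 0 passed on either scale. Among all genes 7.18% passed as higher and 9.91% as lower after RLE. Ccl22 was at 0.17 ± 0.22 and Icosl at 0.19 ± 0.15 after RLE. Levels were low for Cxcl12 (means of 1.05 CPM in BAFF tumour and 1.21 CPM in control libraries) and Traf3ip2 (2.18 and 1.82 CPM). So few genes cannot decide whether non-canonical targets differed. Of the IkB-zeta dependent targets 5 of 7 were tested. Lcn2, the lipocalin gene that neutrophils also carry, passed as deposited (1.23 ± 0.30, limma adjusted p = 0.00222) and not after RLE (1.17 ± 0.49, adjusted p = 0.128). Its values were 10.1, 1.70 and 1.48 CPM in BAFF tumour libraries and 2.30, 0.421 and 0.212 CPM in controls, so BAFF tumour 1 stood apart and the groups overlapped.

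Markers of other cell types and of early response moved in the same libraries, and their part in the NF-kB values was not tested. For comparison, 1.81% of all genes passed as higher and 3.50% as lower as deposited. After RLE 7.18% passed as higher and 9.91% as lower. Monocyte markers were abundant, with summed levels of 9104 to 10552 CPM in BAFF tumour libraries and 5113 to 9415 CPM in controls. After RLE 2 of 8 passed as higher (Ccr2 at 0.51 and Cd14 at 0.64) and 1 as lower. The lower gene was Cx3cr1, named after its values were seen (-0.63 ± 0.18, limma adjusted p = 0.0291). Early response and dissociation genes summed to 5624 to 5816 CPM against 3024 to 4684 CPM, without overlap, and 2 of 12 passed as higher as deposited and 4 after RLE, Hspa1a (0.79 ± 0.15) and Hspa1b (0.83 ± 0.14) among them. Neutrophil markers summed to 178 to 264 CPM against 72.2 to 173 CPM, with 5 of 8 tested passing as higher as deposited and 3 after RLE. Only Il1r2 passed on both scales. S100a8 and S100a9, named after their values were seen, passed as deposited and not after RLE (limma adjusted p = 0.176 and 0.310). Melanoma markers summed to 76.9 to 162 CPM against 396 to 682 CPM, with 7 of 8 passing as lower on both scales. Mature dendritic cell markers, listed because RelB is known to be high in such cells, summed to 418 to 523 CPM against 285 to 557 CPM. Cd83, which macrophages also express, held 269 to 528 CPM of these sums, and 1 of 8, Flt3, passed as higher on both scales. B and plasma cell markers were scarce, at 32.8 to 44.6 CPM against 35.1 to 88.6 CPM, with 2 of 4 tested passing as lower. T and NK cell markers (9.21 to 18.0 against 7.41 to 20.2 CPM) had 0 of 5 passing on either scale. Fibroblast markers (35.5 to 58.4 against 32.2 to 249.6 CPM) had 1 of 6 passing as lower after RLE. The 249.6 CPM was control tumour 1. Col3a1 stood at 91.9 CPM there and at 6.74 and 10.6 CPM in control tumours 2 and 3. Endothelial markers (35.1 to 45.1 against 18.4 to 30.3 CPM) had 2 of 4 passing as higher after RLE.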

How the data were processed

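Libraries were made from total RNA with the TruSeq RNA v2 kit, per the labels' protocols. Partek, STAR (2.4.1d) and Bowtie2 (2.2.5) are named, without roles, per the submitters' processing notes; build, annotation and counting rule were not given in the sources used here. The authors deposited 1 table in CPM. Of its low values, 84.7% to 86.4% per library were whole multiples of 1 step (tolerance 0.02 of a read), which gave the reads per CPM (4.72 to 27.6). Read numbers in the text are CPM multiplied by that factor. The share was too low for a count model. The misspelt column of control tumour 2 was matched by its name and number. No 2 libraries of a group agreed within sampling noise (chi-square per degree of freedom at least 7.47). That value was 80.7 and 150 for control tumour 1 against control tumours 2 and 3, and 7.47 for control tumours 2 and 3. Between BAFF tumour libraries it was 9.89 to 20.0.

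The test covered 12824 genes whose mean reached 1 CPM and was made with limma-trend (limma 3.58.1, R 4.3.3) on log2(CPM + 1), which understates changes of low genes. Prior degrees of freedom were infinite on the deposited scale, so an SE there does not reflect a gene's own spread, and 7.79 after RLE. The method was tested on simulated data whose changes were larger than the main estimates for the 10 genes. The simulation gave all genes the same spread and does not cover changes as small as those of the 10 genes. The members, the lists, the tests and the naming rule were chosen with earlier results of these data known. Named genes were the 10 genes and, as far as printed, up to 4 genes per other pathway list with the smallest p, and for marker lists the most abundant gene and 2 with the smallest p.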

Additional observations from a re-analysis of the deposited data

How the results depend on the processing

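The deposited scale called 681 genes in all, 0 of the 10 NF-kB genes and 4 of the other pathway genes, and other settings are given in that order. RLE gave 2192, 4 and 20, trimmed-mean factors 2171, 4 and 20, and upper-quartile factors 2080, 4 and 16. RLE with depth as a covariate gave 1861, 4 and 18. Chosen after seeing the data, RLE with robust moderation gave 2210, 4 and 20, RLE with a pseudocount of 0.1 gave 2125, 4 and 20, and RLE with a mean of 5 CPM or more gave 1367, 4 and 16. A mean of 5 CPM without RLE gave 316, 0 and 2. Leaving out 1 library gave 170 to 5149, 0 to 9 and 0 to 60 on the deposited scale, the highest each time without control tumour 1. With RLE it gave 2 to 5 of the 10 genes. In those fits with RLE the counts over all genes and other pathway genes were 1524 and 12, 1349 and 13, and 1830 and 19 without BAFF tumours 1, 2 and 3, and 1732 and 18, 1699 and 15, and 1819 and 16 without control tumours 1, 2 and 3. Same-numbered libraries did not deviate together (correlations -0.049, 0.052 and -0.039; 2 of 6 libraries were closest to their own number). With the replicate number as a block the counts were 608, 0 and 3, and with the block and RLE 1940, 4 and 18.

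Nfkbiz changed sign under 12 settings, all near 0: RLE, also with the block, robust moderation or a pseudocount of 0.1 (-0.0052), trimmed-mean (-0.011) and upper-quartile factors (-0.053), RLE with depth (-0.045) or a mean of 5 CPM (-0.046), and without control tumour 3 (-0.0088) or, with RLE, without BAFF tumour 2 or control tumour 2 or 3 (-0.040 to -0.039). Over the libraries left out on the deposited scale it ran from -0.0088 to 0.54. The other 9 genes kept a positive fold change under all 26 settings. The ratio of non-canonical to canonical subunits (log2 difference 0.07) ran from 0.01 to 0.14 and that of inhibitors to subunits (-0.28) from -0.36 to -0.20 over the libraries left out. The cause of these changes was not tested. Depth limits Relb and Bcl3 most, with 45 and 37 reads in control tumour 3.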
